A study of Mus musculus with 24 samples.

Results

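Malat1 and Neat1 are 2 long non-coding RNAs that stay in the nucleus, and they were the 2 rows of 15390 in the deposited table taken up here by name. Both passed the low-value filter that left 13272 genes for testing. The study used MC38, a colon carcinoma line of the mouse grown in culture, as its source of RNA. Control cells carried control guide RNA 1 or control guide RNA 2, and Ado KO cells carried guide RNA 1 or guide RNA 2 against Ado, which encodes a thiol dioxygenase. Each of these 4 guide populations was left untreated or given TNF-alpha (TNF) for 1 h or for 6 h, and 2 libraries were made from each population and treatment with a 3′ tag kit. The 6 groups of genotype and treatment therefore held 4 libraries each, 24 in all. A library is named by its group, guide number and replicate number, so that control TNF 1 h 1-2 is replicate 2 of control guide 1 after 1 h. The labels do not say whether replicates were separate cultures, so p-values measure only the spread between these libraries. Nor do they say whether the guide populations were clones.

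Malat1 is a very abundant RNA of nuclear speckles, the domains rich in splicing factors. Neat1 is the scaffold of paraspeckles, nuclear bodies that hold RNA-binding proteins of the DBHS family, and its short and long isoforms start at the same promoter. Both RNAs have a 3′ end that is not made by cleavage and polyadenylation: RNase P cuts behind an A-rich tract, a tRNA-like RNA is released, and upstream U-rich elements fold with the tract into a triple helix that protects the end. The short isoform of Neat1, in contrast, ends in a poly(A) tail. Neat1 has been described as responsive to stress and to inflammatory signals in several cell types. 3′ tag kits prime with oligo(dT), so they read poly(A) tails and can also prime on A-rich stretches inside a transcript.

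In GRCm38 with the GENCODE M21 annotation, both genes lie on the minus strand of chromosome 19 and are annotated as lincRNA. Malat1 (ENSMUSG00000092341.3) covers chr19:5795690-5802672, 6983 bp, and Neat1 (ENSMUSG00000092274.3) covers chr19:5824708-5845478, 20771 bp, with 22035 bp between them. The ends of their transcripts are shown because they set what a 3′ tag can read. Sequences run 5′ to 3′ on the transcript strand, as DNA letters, from the annotated transcripts. In the 2 tract sequences, given first, capitals mark the U-rich elements and the A-rich tract; in the other two they mark the poly(A) signal AATAAA.
Malat1, A-rich tract (chr19:5795922-5796081): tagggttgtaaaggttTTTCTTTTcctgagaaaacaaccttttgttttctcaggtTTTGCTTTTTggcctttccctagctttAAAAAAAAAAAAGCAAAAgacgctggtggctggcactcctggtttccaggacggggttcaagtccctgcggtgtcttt
Neat1, end of the long isoform (chr19:5824708-5824807): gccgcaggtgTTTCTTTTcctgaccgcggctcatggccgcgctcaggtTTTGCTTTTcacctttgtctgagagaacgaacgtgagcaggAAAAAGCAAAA
Malat1, annotated end (chr19:5795690-5795749): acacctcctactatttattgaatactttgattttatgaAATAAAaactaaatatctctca
Neat1, end of the short isoform (chr19:5842307-5842366): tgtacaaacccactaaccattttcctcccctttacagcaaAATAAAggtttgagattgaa

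The 2 RNAs shared the elements TTTCTTTT and TTTGCTTTT and a tract ending in AAAGCAAAA, but their spacing differed. In the full-length Malat1 transcript the elements ended 58 and 18 bases before a tract of 18 bases, and in the long isoform of Neat1 they ended 71 and 32 bases before a tract of 11 bases. The Malat1 tract held a run of 12 A, the longest of that transcript, and the annotated transcript went on for 292 bases behind the tract to an AATAAA 16 bases before its end. The long isoform of Neat1 stopped at its tract, and Gm27702, a 56 bp small RNA gene not analysed here, is annotated directly behind it at chr19:5824652-5824707. The short isoform is 3004 bases long with AATAAA 14 bases before its end. Among the last 400 bases of the longest transcript of 43318 genes, searched on the sense strand only, AAAGCAAAA occurred in 0.806%, TTTCTTTT in 5.29%, TTTGCTTTT in 0.956%, a run of 12 A in 2.06% and AATAAA in 48.1%. TTTCTTTT, TTTGCTTTT and AAAGCAAAA in this order occurred in 2 genes, Malat1 and Neat1, from whose sequences these letters were taken. The table gives 1 value per gene, so tags from the tract, from the annotated end and from the isoforms cannot be told apart.

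The deposited values are log2 CPM, that is tag counts scaled to an equal total in every library, with a shared lowest value of -3.35 and highest value of 17.04 in all libraries. Nfkbia, an inhibitor of NF-kB that is induced by NF-kB, had log2 CPM of 7.54 ± 0.16 (SD, n = 4) in untreated control cells and 10.63 ± 0.25 after 1 h of TNF, and 7.50 ± 0.08 and 10.63 ± 0.08 in Ado KO cells. Ado stood between 5.00 and 5.53 in the 24 libraries, and a 3′ tag level does not check a guide edit inside the gene. Of 12 colon epithelium markers, 4 were in the table (Cdh1, Krt8, Krt18 and Lgr5), at a summed 0.887 to 3.86 CPM per library, and the other 8, Epcam and Cdx2 among them, had no row to analyse here. Of 11 immune markers 7 were in the table, at a summed 7.84 to 35.7 CPM. Of 8 endothelial and stromal markers 5 were in the table: vimentin (Vim) at 10.29 to 10.71, and Pecam1, Eng, Pdgfrb and Acta2 with medians of -0.53, 1.21, 1.32 and 2.48. After 6 h of TNF in control cells, where 18.0% of all genes were called, 2 of these 5 were called, both lower. Pdgfrb fell by 1.48 and Eng by 1.78 (limma adjusted p = 0.00346 and 0.00589), Eng to a low level of -0.1 ± 1.29 log2 CPM. Vim and Acta2 differed by -0.12 and 0.65 (limma adjusted p = 0.24 and 0.331). In Ado KO cells, where 6.44% of all genes were called, Pdgfrb alone of the 5 was called. It fell by 1.54 (limma adjusted p = 0.00391), while Eng differed by 0.08 (0.959). The part of these changes in the 6 h results was not tested.

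Malat1 stood between 6.47 and 7.91 over the 24 libraries, with a median of 6.91, which spans 88.4 to 241 CPM. In untreated control cells its log2 CPM was 6.53 and 6.67 in the guide 1 libraries and 7.18 and 6.88 in the guide 2 libraries. After 1 h of TNF the control libraries read 7.00, 7.91, 7.24 and 7.08 in the same order, and after 6 h they read 7.57, 7.02, 7.14 and 7.06. Library 1-2 at 1 h was the highest of all 24, and the untreated and treated control libraries overlapped. In untreated Ado KO cells Malat1 read 7.51, 6.70, 6.94 and 6.63. After 1 h the Ado KO libraries read 6.47, 6.63, 6.58 and 6.85, and after 6 h 6.55, 6.88, 7.07 and 6.79. The untreated library 1-1 stood above every other Ado KO library. The group means, from highest to lowest, were control TNF 1 h (7.31 ± 0.41), control TNF 6 h (7.20 ± 0.25), Ado KO untreated (6.94 ± 0.40), Ado KO TNF 6 h (6.82 ± 0.22), control untreated (6.81 ± 0.28) and Ado KO TNF 1 h (6.63 ± 0.16; all SD, n = 4). Each neighbouring pair in this order differed by less than the larger SD of the pair.

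Neat1 stood between 2.60 and 3.73, with a median of 2.91, which spans 6.04 to 13.2 CPM. In untreated control cells its log2 CPM was 2.91, 3.08, 2.60 and 2.69, in the order guide 1 and then guide 2. After 1 h of TNF the control libraries read 2.69, 2.61, 2.81 and 2.73, and after 6 h 3.06, 2.74, 3.05 and 2.61. These 12 values lay within the same narrow band before and after TNF. In untreated Ado KO cells Neat1 read 3.73, 2.91, 3.09 and 2.87, after 1 h 3.00, 3.17, 2.80 and 2.70, and after 6 h 2.99, 3.20, 3.20 and 3.43. Untreated library 1-1 was the highest of all, as it was for Malat1 among Ado KO libraries. The group means ran from Ado KO TNF 6 h (3.21 ± 0.18) through Ado KO untreated (3.15 ± 0.40), Ado KO TNF 1 h (2.92 ± 0.21), control TNF 6 h (2.87 ± 0.23) and control untreated (2.82 ± 0.22) to control TNF 1 h (2.71 ± 0.08). The 3 Ado KO means stood above the 3 control means, and each neighbouring pair differed by less than the larger SD of the pair.

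**Figure D1:**
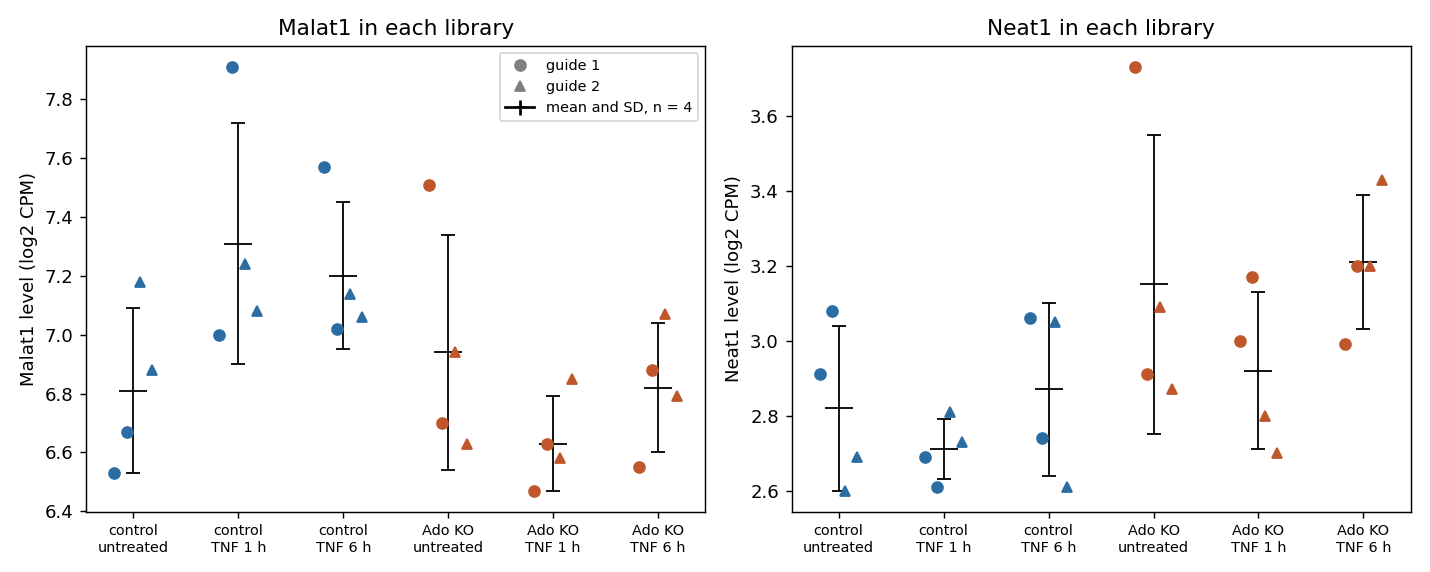
Log2 CPM of Malat1 (left) and Neat1 (right) in each of the 24 libraries by group; circles are guide 1, triangles are guide 2, and the bars give mean and SD of 4 libraries. The axes do not start at 0 and differ between the panels; Malat1 in control TNF 1 h (7.00 to 7.91) lies above Ado KO TNF 1 h (6.47 to 6.85), while all Neat1 groups overlap their neighbours.

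Neither RNA passed the test in any of the 13 comparisons made with limma over 13272 genes (Benjamini-Hochberg adjusted p under 0.05, two-sided). The comparisons with untreated cells share the untreated libraries, and those between times and genotypes share libraries too. The labels do not say when untreated cells were harvested, so TNF and time in culture cannot be told apart.

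In control cells, 1 h of TNF went with a Malat1 difference of 0.50 ± 0.17 (SE) on the log2 scale, 1.41-fold, with a 95% confidence interval of 0.15 to 0.85 and an adjusted p of 0.182 by limma. In this comparison 0.392% of genes were called. The size of the Malat1 difference rested on guide 1: it was 0.29 without control TNF 1 h 1-2 (limma adjusted p = 0.535), 0.14 without control guide 1 and 0.86 without control guide 2, with limma adjusted p-values of 0.0674 to 0.963 over 19 alternatives. For Neat1 the same difference was -0.11 ± 0.18 (interval -0.48 to 0.27, limma adjusted p = 0.831). After 6 h, where 18.0% of genes were called, Malat1 stood 0.39 ± 0.17 above untreated, 1.31-fold, with an interval of 0.04 to 0.74 and a limma adjusted p of 0.120. Leaving out untreated library 2-1 put this difference at 0.51 and the limma adjusted p at 0.0497, and leaving out control TNF 6 h 1-1 gave 0.26. Without control guide 1 it was 0.07 and without control guide 2 it was 0.70, and over 19 alternatives the limma adjusted p ran from 0.0370 to 0.903. Neat1 differed by 0.05 ± 0.18 after 6 h (interval -0.33 to 0.42, limma adjusted p = 0.893). The Neat1 interval ends at 1.34-fold.

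In Ado KO cells, where 0.256% of genes were called at 1 h and 6.44% at 6 h, the Malat1 differences were -0.31 ± 0.17 (interval -0.66 to 0.04) and -0.12 ± 0.17 (interval -0.47 to 0.23). Their limma adjusted p-values were 0.728 and 0.786. Without untreated Ado KO 1-1, the high library, they were -0.12 and 0.07, and without Ado guide 1 they were -0.07 and 0.15. The Neat1 differences were -0.23 ± 0.18 (interval -0.61 to 0.14) at 1 h and 0.06 ± 0.18 (interval -0.32 to 0.43) at 6 h, with limma adjusted p-values of 0.854 and 0.919. Without untreated Ado KO 1-1 they were -0.04 and 0.25. Between 1 h and 6 h of TNF, 7.68% of genes were called in control cells and 7.77% in Ado KO cells. Malat1 differed between these times by -0.11 and 0.19 in control and Ado KO cells (limma adjusted p = 0.784 and 0.586), and Neat1 by 0.15 and 0.29 (0.708 and 0.399).

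The genotype comparison put Ado KO against control cells within each treatment. In untreated cells 0.249% of genes were called, Malat1 differed by 0.13 ± 0.18 (interval -0.24 to 0.50, limma adjusted p = 0.914) and Neat1 by 0.33 ± 0.19 (interval -0.07 to 0.72, limma adjusted p = 0.674). Without untreated Ado KO 1-1 these were -0.06 for Malat1 and 0.14 for Neat1. After 1 h of TNF, where 1.06% of genes were called, Malat1 stood 0.68 ± 0.18 lower in Ado KO cells, a log2 difference of -0.68 with an interval of -1.05 to -0.31 and a ratio of 0.624. Every Ado KO library was below every control library, which held for 7.15% of all genes in this comparison, in either direction. The limma adjusted p was 0.0553, which misses the threshold, and 168 genes had a smaller one. The difference was there for both guides: the guide population means were 7.46 and 7.16 in control guides 1 and 2 and 6.55 and 6.71 in Ado guides 1 and 2 (n = 2 each).

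This value was near enough to the threshold that single choices moved it across. Of 21 alternatives 7 called it, with limma adjusted p-values from 0.0162 to 0.342 over all 21. Leaving out control TNF 1 h 2-2 gave -0.76 (limma adjusted p = 0.0414) and leaving out Ado KO TNF 1 h 2-2 gave -0.75 (0.0269). Leaving out control TNF 1 h 1-2, the library with the highest Malat1, gave -0.47 (0.169). Without any guide block the limma adjusted p was 0.0402, and with guide populations as fixed terms 0.0162. With fixed terms the error held only the spread between replicates of a population, so differences between guide populations did not enter it. Without a block, libraries of the same population counted as independent. Neat1 differed at 1 h by 0.20 ± 0.19 (interval -0.19 to 0.60, limma adjusted p = 0.663).

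After 6 h of TNF, where 1.02% of genes were called, Malat1 differed between genotypes by -0.38 ± 0.18 (interval -0.75 to -0.01, limma adjusted p = 0.422) and Neat1 by 0.34 ± 0.19 (interval -0.05 to 0.74, limma adjusted p = 0.542). The genotype difference in the TNF response is the interaction term of the same fit. For Malat1 it was -0.81 ± 0.24 at 1 h (interval -1.31 to -0.31, limma adjusted p = 0.441) and -0.51 ± 0.24 at 6 h (interval ending at -0.01, limma adjusted p = 0.732). Over 29 alternatives it ran from -1.17 to -0.45 at 1 h and from -0.82 to -0.19 at 6 h. At 1 h limma called 0.0% of genes, 0 of 13272, while 628 were higher and 676 lower at an unadjusted p under 0.05. At 6 h it called 0.347%. For Neat1 the interaction was -0.13 ± 0.26 at 1 h and 0.01 ± 0.26 at 6 h (limma adjusted p = 0.894 and 0.998).

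The guide populations of 1 genotype were compared as well. Averaged over treatments, control guide 2 differed from control guide 1 by -0.02 ± 0.13 in Malat1 and -0.10 ± 0.15 in Neat1 (limma adjusted p = 0.960 and 0.767), where 4.61% of genes were called. Ado guide 2 differed from Ado guide 1 by 0.02 ± 0.13 and -0.15 ± 0.15 (limma adjusted p = 0.980 and 0.822), where 0.158% were called. These averages join guide differences of opposite sign for Malat1: in control cells guides 1 and 2 stood at 6.60 and 7.03 untreated, 7.46 and 7.16 at 1 h and 7.30 and 7.10 at 6 h, and in Ado KO cells at 7.11 and 6.78, 6.55 and 6.71, and 6.71 and 6.93 (n = 2 each, not tested within a treatment). Over its 6 libraries, control guide 1 held Malat1 at 7.12 ± 0.53 and control guide 2 at 7.10 ± 0.12, so the means were close and the spread was not. The Ado guides held it at 6.79 ± 0.38 and 6.81 ± 0.19. Neat1 stood at 2.85 ± 0.20 and 2.75 ± 0.17 in control guides 1 and 2 and at 3.17 ± 0.30 and 3.01 ± 0.28 in Ado guides 1 and 2 (SD, n = 6).

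**Figure D2:**
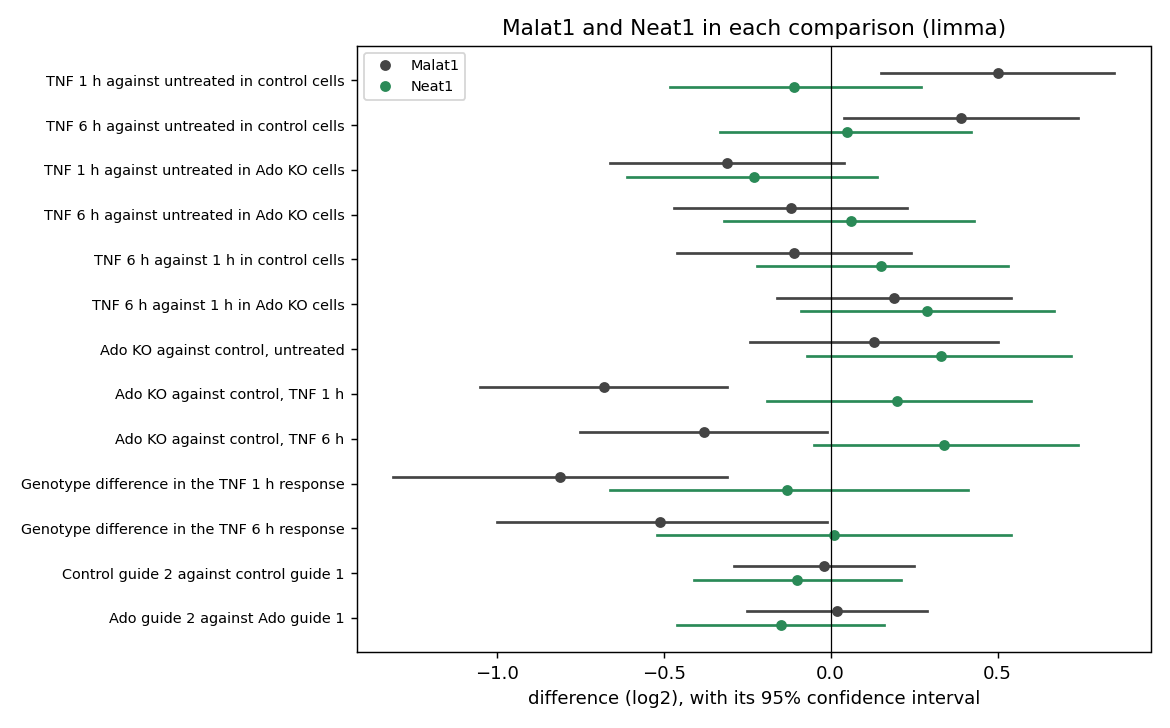
Log2 differences of Malat1 (grey) and Neat1 (green) in the 13 comparisons, with 95% confidence intervals from limma that are not adjusted for the number of genes. The Malat1 interval for Ado KO against control at 1 h runs from -1.05 to -0.31, and none of the 26 values passed the adjusted threshold.

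The level of Neat1 relative to Malat1 within a library does not depend on a scaling factor common to both. A quantile normalisation, as inferred here, can however shift genes of unlike level by different amounts within a library, and this was not tested. Neat1 minus Malat1 was -4.60 ± 0.47 in control and -3.71 ± 0.33 in Ado KO cells after 1 h, and -4.33 ± 0.19 and -3.62 ± 0.21 after 6 h (SD, n = 4). The genotypes differed by 0.88 at 1 h and 0.72 at 6 h, with no overlap of the libraries at either time. Each had p = 0.0286 in a two-sided exact permutation test, the smallest that 4 against 4 libraries can give, and an adjusted p of 0.129 over 9 comparisons. The test permuted single libraries and took no account of guide population. In untreated cells the value was -3.99 ± 0.48 and -3.80 ± 0.04 (exact permutation p = 0.486, adjusted p = 0.624). The 6 comparisons between treatments had exact permutation p-values of 0.171 to 0.657.

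Over the 8 libraries of a treatment, with both genotypes and all guides mixed, Malat1 and Neat1 gave Pearson r of 0.51 in untreated cells (exact permutation p = 0.199, adjusted p = 0.299), -0.67 at 1 h (p = 0.0714, adjusted p = 0.214) and -0.16 at 6 h (p = 0.724, adjusted p = 0.724). Spearman rho was 0.18, -0.60 and -0.05 (exact permutation p = 0.676, 0.132 and 0.935; adjusted over the 3 treatments 0.935, 0.397 and 0.935). Without the 2 libraries farthest from the median of Malat1, r was -0.03, -0.48 and -0.60. The untreated value rested on those libraries.

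Malat1 varied more between libraries of 1 group than most genes of its level. Its SD within groups was 0.30 on the log2 scale, against a median of 0.12 for 776 genes within 0.5 of its mean level, and 97.7% of those had less spread. For Neat1 the SD was 0.24 against a median of 0.30 for 2004 genes, with 15.6% below it. The depth is not given in the sources used here. If the lowest value stands for 0 tags with an offset of 0.5, a library held about 632 tags of Malat1 and 39 of Neat1, and counting alone would give SDs of 0.06 and 0.23. On that assumption the spread of Neat1 was close to the counting limit and that of Malat1 was above it.

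Genes most like Malat1 over the 24 libraries, by Pearson r among named genes that passed the filter, were mt-Rnr2, the mitochondrial 16S ribosomal RNA (0.88), Tmsb4x, which encodes the actin-binding thymosin beta 4 (0.86), Zranb2, a splicing factor gene (0.83), and Rpl23, a ribosomal protein gene (0.82). Neat1 was not among them, with r = -0.04. These are descriptions over libraries that share groups and scaling. The genes were picked by r with Malat1 over libraries that include those at 1 h. Their differences at 1 h are therefore not independent of the Malat1 difference. mt-Rnr2 had group means of 11.67, 12.27 and 12.35 in control cells untreated, at 1 h and at 6 h, and 11.69, 11.48 and 11.91 in Ado KO cells. At 1 h it stood 0.79 lower in Ado KO than in control cells (a difference of -0.79, limma adjusted p = 0.0542), beside -0.70 for Tmsb4x (0.0648), -0.32 for Zranb2 (0.263) and -0.32 for Rpl23 (0.0497). Of these 4 genes, Rpl23 alone passed the threshold. The mitochondrially encoded share of a library's summed values was 2.55% to 3.58% in control and 1.84% to 2.48% in Ado KO libraries at 1 h, and control TNF 1 h 1-2, which held the highest Malat1, had the highest share. At 6 h the share was 2.88% to 3.27% in control and 2.36% to 2.62% in Ado KO libraries, and in untreated control libraries it was 1.97% to 2.50%. mt-Rnr2 rose by 0.68 at 6 h in control cells (limma adjusted p = 0.016). The share thus moved with Malat1 in both genotype comparisons under TNF and in the control response. In Ado KO cells its median was 2.09% untreated, 1.89% at 1 h and 2.47% at 6 h. The Malat1 mean differed there from untreated by -0.31 at 1 h and by -0.12 at 6 h. Without untreated Ado KO 1-1 the 6 h difference was 0.07, so its direction beside that of the share rested on this library. Neither the 1 h nor the 6 h Malat1 difference passed the test. The part of the share in any of the Malat1 differences was not tested.

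**Figure D3:**
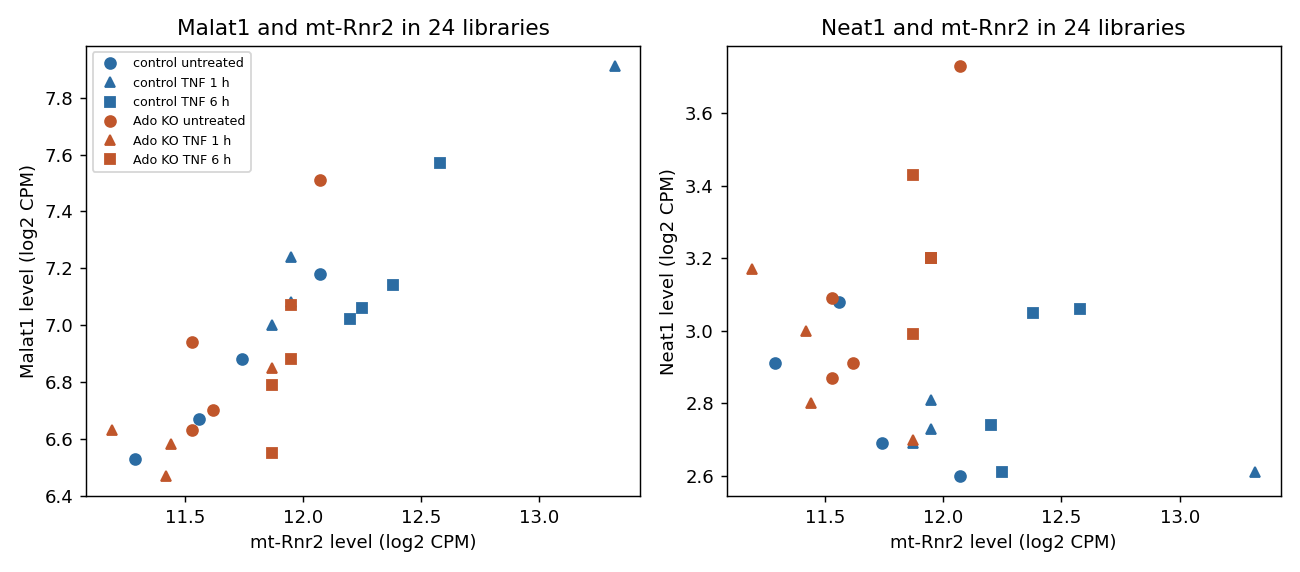
Log2 CPM of Malat1 (left) and Neat1 (right) against mt-Rnr2 in the 24 libraries, coloured by genotype and shaped by treatment. Malat1 runs along with mt-Rnr2 up to control TNF 1 h 1-2 at the upper right (7.91), and Neat1 shows no such course.

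The genes most like Neat1 had lower r: Agrn, which encodes the matrix proteoglycan agrin (0.65), Slc29a2, a nucleoside transporter gene (0.64), Penk, which encodes proenkephalin (0.63), Il1rl1, the interleukin-33 receptor gene (0.63), and Isg15, an interferon-induced ubiquitin-like modifier gene (0.62). These genes were picked by r with Neat1 over libraries that include those at 1 h. Their genotype differences are therefore not independent of the Neat1 values. At 1 h Penk stood 1.05 higher (limma adjusted p = 0.0126) and Isg15 0.82 higher (0.00237) in Ado KO than in control cells. Agrn, Slc29a2 and Il1rl1 had differences of 0.31, 0.36 and 0.56 that missed the threshold (limma adjusted p = 0.0947, 0.122 and 0.0922).

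Proteins of the nuclear bodies around the 2 RNAs were counted next, from lists chosen by function. Of 37 paraspeckle protein genes, 6 rose and 0 fell after 6 h of TNF in control cells, a share near the 18.0% over all genes. The list median was 0.02 against -0.09 over all genes. Pspc1, a core DBHS protein, rose by 0.65 ± 0.18 (limma adjusted p = 0.0114) from 2.88 ± 0.14 to 3.53 ± 0.29 log2 CPM. The RNA-binding protein genes Hnrnpm (0.39), Hnrnph1 (0.35) and Hnrnpa1 (0.29) rose less. In Ado KO cells, where 6.44% of all genes were called, 0 of the 37 were called by limma at 6 h, with 0 higher and 1 lower at an unadjusted p under 0.05 and a median of 0.00, and Pspc1 stood at 0.35 ± 0.18 (limma adjusted p = 0.315). Gene by gene, the genotype difference in the 6 h response was called in 0 of the 37, where 0.347% of all genes were called. For Pspc1 it was -0.30 ± 0.25 (limma adjusted p = 0.873). The genotypes were not tested against each other as lists. Of 35 nuclear speckle and SR protein genes, 4 rose and 1 fell in control cells (median 0.04), a share below the 18.0% over all genes. Among the risers were Srsf10 at 0.52 and Tra2b at 0.41, both regulators of splicing. In Ado KO cells 0 of the 35 were called by limma, beside 6.44% of all genes. The median there was -0.01, with 1 higher and 0 lower at an unadjusted p under 0.05.

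Of 31 measured genes of RNase P and of 3′ end processing, 3 rose and 3 fell in control cells at 6 h (median -0.06), a share near the 18.0% over all genes. The largest difference was that of Rpph1, the RNA subunit of RNase P, from 1.96 ± 0.45 to 7.01 ± 0.31 log2 CPM, a rise of 5.05 ± 0.20 (limma adjusted p = 5.15e-19). Rpph1 is itself a non-coding RNA, and 256 of 334 tested small non-coding RNA genes rose in this comparison (median 2.12). The part of that class-wide rise in the Rpph1 value was not tested. In Ado KO cells Rpph1 rose by 4.14 ± 0.20 (limma adjusted p = 1.54e-16). It was the 1 gene of the list called there, where 6.44% of all genes were called. Pop5, a protein subunit of RNase P, fell by 0.35 in control cells (limma adjusted p = 0.0227), Trnt1, which adds CCA ends to tRNAs, rose by 0.51 (0.0327), and Pcf11, a cleavage factor gene, rose by 0.63 (0.0252). Malat1 and Neat1 had differences of 0.39 and 0.05 in the same comparison. Of 24 measured genes of the nuclear exosome and its adaptors, 2 rose and 0 fell in control cells, a share below the 18.0% over all genes: the RNA helicase gene Skiv2l2 at 0.42 (0.027) and the cofactor gene Mphosph6 at 0.34 (0.00259). In Ado KO cells 1 rose, Mphosph6 at 0.34 (0.00339), a share below the 6.44% over all genes.

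Other RNA classes were counted at 6 h beside the 18.0% of all genes called in control cells and the 6.44% called in Ado KO cells. Of 334 tested small non-coding RNA genes, 256 rose and 0 fell in control cells (median 2.12), and 150 rose and 0 fell in Ado KO cells (median 1.17). Rn7sk, the 7SK RNA, rose by 6.94 and 6.03, from 5.24 ± 0.37 to 12.18 ± 0.40 log2 CPM in control cells; near-identical copies such as Gm24447 may share its tags. Of 64 replication-dependent histone genes, whose mRNAs end in a stem-loop without a poly(A) tail, 40 rose and 1 fell in control cells (median 1.61), and 24 rose and 4 fell in Ado KO cells (median 0.86). The small non-coding share of the summed values was 0.249% to 0.289% in untreated control libraries, 2.04% to 3.08% in control libraries at 6 h and 1.34% to 1.58% in Ado KO libraries at 6 h. What this shift did to the values of other genes was not tested beyond the scaling alternatives. Of 21 tested long non-coding RNA genes from a list of known names, 8 rose and 0 fell in control cells (median 0.44), and 5 rose and 0 fell in Ado KO cells (median 0.22). The 4 with the smallest adjusted p in control cells host small nucleolar RNAs, Snhg17 at 2.90, Snhg12 at 2.01, Snhg4 at 1.71 and Snhg20 at 1.36. Among all 367 tested long non-coding RNA genes 31 rose and 27 fell in control cells, with a median of -0.12, a share near that of all genes.

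**Figure D4:**
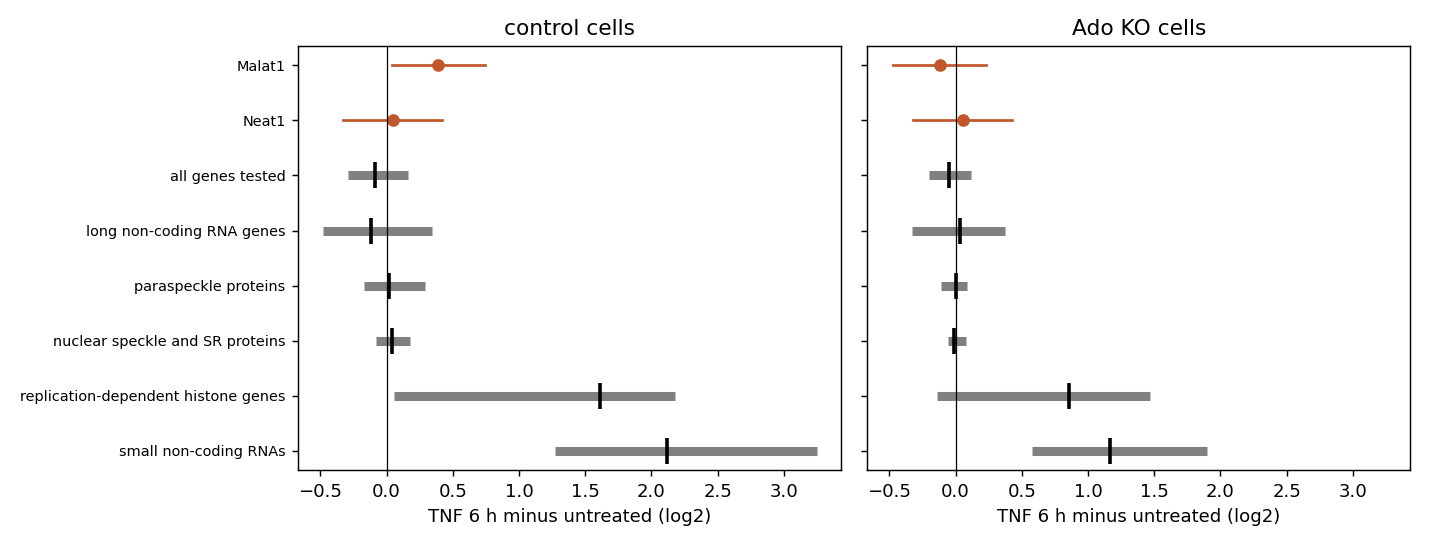
Log2 difference between 6 h of TNF and untreated cells in control (left) and Ado KO cells (right). Points with thin lines are Malat1 and Neat1 with 95% confidence intervals, and thick bars with a black mark give the interquartile range of a class and its median; the medians of the small non-coding RNAs are 2.12 and 1.17.

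Around the 2 genes, 10 measured genes lie within 100 kb, and 4 of them fell and 0 rose after 6 h of TNF in control cells (median -0.30). Over all 13272 genes 1027 rose and 1365 fell there, 18.0% in all, with a median of -0.09. Cdc42ep2, an effector of the GTPase Cdc42 that lies 70158 bp away, fell by 1.49 ± 0.33 from 2.57 ± 0.47 to 1.07 ± 0.48 log2 CPM (limma adjusted p = 0.0015). Frmd8, 4224 bp upstream of Neat1, fell by 0.60 ± 0.19 (0.0234), Dpf2, a subunit of BAF chromatin remodellers, by 0.43 ± 0.12 (0.0139), and Fam89b by 0.34 ± 0.10 (0.0141). Map3k11, Ehbp1l1, Ltbp3, Slc25a45 and Pola2 did not pass the test, with differences of -0.72 to -0.10. In Ado KO cells, where 6.44% of all genes were called, Cdc42ep2 fell by 1.56 ± 0.33 (limma adjusted p = 0.00143) and Fam89b by 0.34 ± 0.10 (0.025). The other 8 missed the threshold. Within 500 kb, 4 of 47 tested genes rose and 11 fell in control cells (median -0.15), and the risers included Rela (0.63), the p65 subunit of NF-kB, and Fosl1 (0.68), an AP-1 subunit. Malat1 and Neat1 lay among genes of both directions without passing the test themselves.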

How the data were processed

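RNA from 24 MC38 libraries was read with a QuantSeq 3′ mRNA kit, per the labels' protocols. HISAT2, featureCounts and Subread, limma, cutadapt 1.7 and FastQC are listed in the submitters' processing notes, with the builds GRCm38 and mm10; order, strand setting and depth are not given in the sources used here. The deposited table holds values that the authors had normalised, read here as log2 CPM. The unit and a quantile normalisation were inferred from the values: unlogged sums were 998900 to 999014 per library, with 0 missing values and 0 identical library pairs. A scaling that equalises distributions can hide shifts common to most genes.

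Values were used as deposited. Genes with log2 values of 0 or more in at least 4 libraries were kept. Limma 3.58.1 (R 4.3.3, statmod 1.5.0) fitted 6 group means with guide population as a random block (correlation 0.0485) and a variance trend; guides were compared on 12 means. Tests were two-sided with Benjamini-Hochberg adjustment over 13272 genes. Ratios and correlations used exact permutation tests (scipy 1.17.1). The fit was tested on simulated data. Replicate numbers were not used as pairs; for control guide 2 at 1 h, titles and column names number the replicates oppositely, and numbers follow the titles. GENCODE M21 matched 15207 symbols to 1 gene, 41 to several and 142 to none.

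Named genes were Malat1, Neat1, Ado, Nfkbia, the 5 genes most like each RNA, at most 4 genes per list by smallest adjusted p (6 h, control cells), genes within 100 kb, and, outside this rule, genes named beside them such as Vim. A few genes that meet this rule are not reported here. Members and lists were chosen with earlier results of these data known. Alternatives changed the block, trend, filter, centring, libraries fitted, and left out each library or guide.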

Additional observations from a re-analysis of the deposited data

Results flagged for a closer look

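Neat1 minus Malat1 in control TNF 1 h library 1-2 was -5.30 on the log2 scale, while the other 3 libraries of the group stood at -4.43 to -4.31. The gap to the nearest of the others was large for a group of 4 by Dixon's test at 95%. It was 1 of 18 groups tested, and chance alone sets apart about 1 group in 20. This library held the highest Malat1 of all 24 (7.91) and a mitochondrially encoded share of 3.58%, and its Neat1 (2.61) was the lowest of the group, where the other 3 stood at 2.69 to 2.81.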

How the results depend on the processing

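Over both RNAs and 13 comparisons, 10 of 546 settings gave a call, all of Malat1. For Ado KO against control at 1 h these were no guide block (-0.68), guides as fixed terms (-0.68), a replicate block (-0.68), ribosomal protein centring (-0.72), without control guide 2 (-0.83) and 2 libraries left out (leaving out each library: -0.79 to -0.47). In genotype comparisons the error of the fixed-term and replicate-block fits left out the spread between guide populations. For 6 h of TNF in control cells they were ribosomal protein centring (0.51), only the groups compared (0.39) and 1 library left out (0.26 to 0.51). The causes were not tested. Replicate numbers did not pair libraries: replicate differences correlated between treatments at -0.158 to 0.0543.

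Differences near 0 changed sign. Malat1 was 0.15 at 6 h in Ado KO cells without Ado guide 1, and -0.08 and -0.03 between untreated genotypes without control guide 1 or Ado guide 1. Neat1 was 0.13 at 1 h in control cells without control guide 1, -0.10 at 6 h without control guide 2, and -0.23 at 6 h in Ado KO cells without Ado guide 2. Its interaction was 0.11 at 1 h without control guide 2, and at 6 h -0.01 and -0.04 with protein-coding or ribosomal protein centring, -0.13 without control guide 1 and -0.27 without Ado guide 2. Leaving out each library gave Malat1 -0.23 to 0.07 (6 h, Ado KO), -0.24 to 0.09 (6 h against 1 h, control), -0.06 to 0.26 (untreated genotypes), -0.17 to 0.13 (control guides) and -0.11 to 0.15 (Ado guides). It gave Neat1 -0.03 to 0.13 (6 h, control), -0.03 to 0.25 (6 h, Ado KO), -0.21 to 0.07 and -0.08 to 0.20 (interactions, 1 h and 6 h). Neat1 minus Malat1 in Ado KO cells was 0.00 to 0.23 (1 h) and -0.05 to 0.18 (6 h against 1 h).

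Counts of called genes moved by over 1.5 times in 86 of 273 settings; the ranges given leave out each library. At 1 h in control cells 52 became 216 with fixed terms, 103 with ribosomal protein centring, 28 with only the groups compared, and 22 and 260 without control guide 1 or 2 (range 31 to 76). At 6 h 2392 became 684 and 1575 without control guide 1 or 2 (range 1581 to 2153). In Ado KO cells at 1 h 34 became 57 with fixed terms, 20 with only the groups compared and 15 without Ado guide 2, and at 6 h 855 became 369 and 417 without Ado guide 1 or 2. Between times 1019 became 483 and 655 in control cells, and 1031 became 260 and 444 in Ado KO cells, without guide 1 or 2 (range in Ado KO cells 679 to 1296). Between untreated genotypes 33 became 132 with fixed terms, 138 with a replicate block, 6 with no trend, 13 with only the groups compared, 139 without control guide 2 and 3 without Ado guide 2 (range 11 to 35). At 1 h 141 became 609, 642, 43, 3, 956 and 71 in these settings and 23 without Ado guide 1 (range 30 to 434). At 6 h 135 became 324, 340, 58, 295, 322 and 31, and 37 without Ado guide 1 (range 58 to 139). For the interaction, 0 at 1 h became 7 without control guide 2 (range 0 to 38). At 6 h 46 became 70 with fixed terms, 30 with no trend, 73 with only the groups compared, 7 without control guide 1 and 1 without Ado guide 2 (range 27 to 52). Between control guides 612 became 295 with no trend (range 372 to 1378). Between Ado guides 21 became 33 with a replicate block, 0 with no trend and 0 with only the groups compared (range 0 to 72).

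At the implied depth counting alone gives Neat1 an SD of 0.23 on the log2 scale.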
